A study of Mus musculus with 2 samples.

Results

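D10Wsu102e is a protein-coding gene on the plus strand of mouse chromosome 10 (GRCm38, chr10:83360221-83488505), and among genes as GENCODE annotates them, and whose small RNAs mostly began with uracil, it was the richest source of 24–33-nt small RNAs in fetal testes. The RNAs described here were the sequences of 16 to 36 nt that matched its transcript exactly, on either strand, and matched no transcript of another gene in GENCODE release M21. They numbered 6888 of the 984096 distinct sequences of these lengths in the data, with 4872 in the WT library, 3003 in the Hsp90α KO library and 987 in both, and they comprised 7945 WT reads and 4294 KO reads. At the upper edge of the length rule, 21 WT reads and 5 KO reads had 36 nt and were kept, and 22 and 5 reads of 37 nt were left out. At the lower edge, 38 and 21 reads had 16 nt, and shorter sequences were not matched. The gene was selected on its summed level in both libraries among genes with mostly first-position uracil, so its level and first base are given as descriptions without a test.

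The study asked whether HSP90α, a chaperone encoded by Hsp90aa1, is needed for piRNA production in fetal male germ cells. Whole testes of C57BL/6 fetuses from natural matings were taken at embryonic day 16.5, and total RNA from 20 testes was pooled for each genotype, WT or Hsp90α KO. One small RNA library was made from each pool, so variation between animals cannot be seen and every interval below covers counting error of reads only. Reads came from PCR without molecular identifiers and are not independent molecules. The libraries held 6409305 reads (WT) and 5589326 reads (KO), of which 2523084 and 2561491 were miRNA reads, and levels are given as reads per 1000000 miRNA reads (RPM), where 3 reads correspond to 1.19 in WT and 1.17 in KO. The 6 miRNA genes listed from the miR-290 cluster, as germ cell markers in the fetal testis, were all found, with summed levels of 795 RPM in WT and 1031 RPM in KO. Mir202, found in supporting cells, was at 1996 and 2134, and the mesenchymal Mir143 and Mir145a together were at 35831 and 29092. The liver miRNA Mir122 had 16 WT reads and 1 KO read. In RNA from whole testes, fewer germ cells and less small RNA per germ cell cannot be told apart. Small RNA fragments of Hsp90aa1 (2 WT and 10 KO reads of 24–33 nt) do not check the knockout, because they need not come from the deleted part.

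PIWI-interacting RNAs (piRNAs) are germline small RNAs that guide PIWI proteins to transposons. Primary piRNAs are cut from long single-stranded precursors, often transcribed from intergenic clusters or from the 3′ UTRs of genes, and usually begin with uracil. In the ping-pong cycle, a PIWI protein guided by a piRNA slices a transcript of the opposite strand, and the cut end becomes the 5′ end of a secondary piRNA, so the partners overlap by 10 nt and the secondary piRNA tends to have adenine at its 10th position. In fetal mouse testes, MILI holds the shorter piRNAs and MIWI2 the longer ones. The protein of D10Wsu102e helps to assemble box C/D small nucleolar ribonucleoproteins, together with a co-chaperone complex of HSP90.

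The RNAs of D10Wsu102e with the most reads on the sense strand are shown first, to give the first and the 10th base of the most abundant ends. They are printed 5′ to 3′ as DNA letters, with the first and 10th bases in capitals, and each is the most frequent sequence at its 5′ end. The number in each name is the position of the 5′ end on the transcript.
sense 107260: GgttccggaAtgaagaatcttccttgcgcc
sense 26549: TagcggacaCccaagaactcatgacagt
sense 25212: TattagaggGtctgcagagactgcct
sense 25624: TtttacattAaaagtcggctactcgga
sense 73235: AgacatgtcAgatctacgcccgaggcacc
sense 69226: TctgaatccAcgagatccttgggtccct
On GRCm38 these lie, in the same order, at chr10:83472586-83472615, chr10:83391875-83391902, chr10:83390538-83390563, chr10:83390950-83390976, chr10:83438561-83438589 and chr10:83434552-83434579 on the plus strand.

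Among the antisense 5′ ends with the most reads, 2 are shown for the same reason, with the same capitals.
antisense 104467: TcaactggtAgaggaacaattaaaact
antisense 104389: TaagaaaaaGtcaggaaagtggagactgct
They lie on the minus strand at chr10:83469767-83469793 and chr10:83469686-83469715, in that order. All 8 sequences lie in the last exon, beyond the end that RefSeq gives the gene.

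The annotated transcript explains where these RNAs could be placed. GENCODE gives D10Wsu102e 1 transcript of 123179 nt, the longest of any of the 55450 genes in the release, with exons at chr10:83360221-83360373, chr10:83362047-83362133, chr10:83364379-83364515 and chr10:83365704-83488505. The last exon alone spans 122802 nt. The coding sequence with its stop codon has 558 nt, the 5′ UTR has 38 nt, and the 3′ UTR has 122583 nt. RefSeq ends the gene at position 83368835, which is position 3509 of the transcript, so 119670 nt of the GENCODE 3′ UTR lie beyond the RefSeq gene. Small RNA reads do not show whether this extension is transcribed with the gene or separately, so the rank and level given to D10Wsu102e here hold for the GENCODE transcript and may not belong to the gene that RefSeq describes. Toward its end the exon overlaps Aldh1l2, which runs on the minus strand from 83487450 to 83534140.

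Nearly all of the RNAs came from the long extension. Among RNAs of 24–33 nt that had a single position on the transcript (7329 WT and 3898 KO reads), 7293 WT reads and 3881 KO reads began beyond the RefSeq end, which is 60.9 and 32.4 reads per kb. The 3′ UTR up to the RefSeq end held 27 and 13 reads, or 9.27 and 4.46 per kb. The coding sequence held 9 and 4 reads. The 5′ UTR, only 38 nt long, held 0 in either library, which at this depth does not show that it lacks such RNAs. The mRNA part thus carried RNAs at a lower density than the extension taken as a whole, and all of its RNAs were sense. Stretches of the extension were also sparse: from 110 to 120 kb it held 93 WT and 52 KO reads. The first 10 kb, most of which is extension, held 108 and 41 reads, all of them sense. Low density and sense RNAs alone were therefore not particular to the mRNA part. The share of reads in the 5′ UTR and coding sequence was 0.123% in WT and 0.103% in KO, a difference that was not detectable at this depth (Fisher's exact test, two-sided, p = 1, adjusted p = 1 over 4 tests). That test, like the others below, compares the reads of 2 libraries and not the genotypes.

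The 24–33-nt RNAs of D10Wsu102e were less abundant in the KO library. There were 7524 WT reads and 4007 KO reads of 6350 distinct sequences, or 2982 and 1564 RPM, a KO/WT ratio of 0.525 (95% Clopper-Pearson interval 0.505 to 0.545). Sense RNAs made up most of them, with 6210 and 3419 reads, levels of 2461 and 1335, and a ratio of 0.542 (0.520 to 0.566). Antisense RNAs had 1314 and 588 reads, levels of 521 and 229.6, and a ratio of 0.441 (0.399 to 0.486). Both strands were therefore at a lower level in the KO library, by more than the counting error. Normalized to all reads of 16 to 36 nt in place of miRNA reads the overall ratio was 0.608, and it was 0.603 with each distinct sequence counted once.

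Antisense RNAs had the lower ratio. Their share of the gene's 24–33-nt reads was 17.5% in WT and 14.7% in KO, a difference of -2.79 percentage points (Fisher's exact test, two-sided, p = 0.000119, adjusted p = 0.000238), and the antisense ratio was 0.813 times the sense ratio (0.730 to 0.904). With each distinct sequence counted once, the difference was -1.75 points (Fisher's exact test, p = 0.0525). When sequences that also match other genes were included, it turned to 3.45 points (p = 1.02e-20 by the same exact test), with 50668 WT and 22353 KO reads that match D10Wsu102e together with other genes entering the count.

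The reads were spread along most of the transcript, with high windows near 23 and 107 kb in both libraries. From 121 kb to the end neither library had a read. Only 12.3% of the 28-mers from 122 to 123 kb were specific to the gene, against 86.3% from 121 to 122 kb. Of the 124 windows of 1 kb, 121 held reads, and all 121 held sense reads, while 68 held antisense reads. The window from 23 to 24 kb was the richest, with 300 sense and 244 antisense reads in WT and 132 and 94 in KO, a ratio of 0.409 (0.349 to 0.479). Antisense RNAs were more concentrated than sense RNAs: 5 windows held 50% of the WT antisense reads, whereas 25 windows were needed for 50% of the sense reads. In the first 20 kb, 1 of 428 WT reads and 0 of 141 KO reads was antisense, and 0 of 141 allows a share of up to 2.65% (upper Wilson limit). Between 20 and 30 kb, 570 of 1737 WT reads (32.8%) and 245 of 831 KO reads (29.5%) were antisense, and between 100 and 110 kb 325 of 961 (33.8%) and 164 of 658 (24.9%) were. The densest antisense regions thus lay near 23 kb and near 104 kb, and the start of the extension gave rise to sense RNAs almost exclusively.

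**Figure D1:**
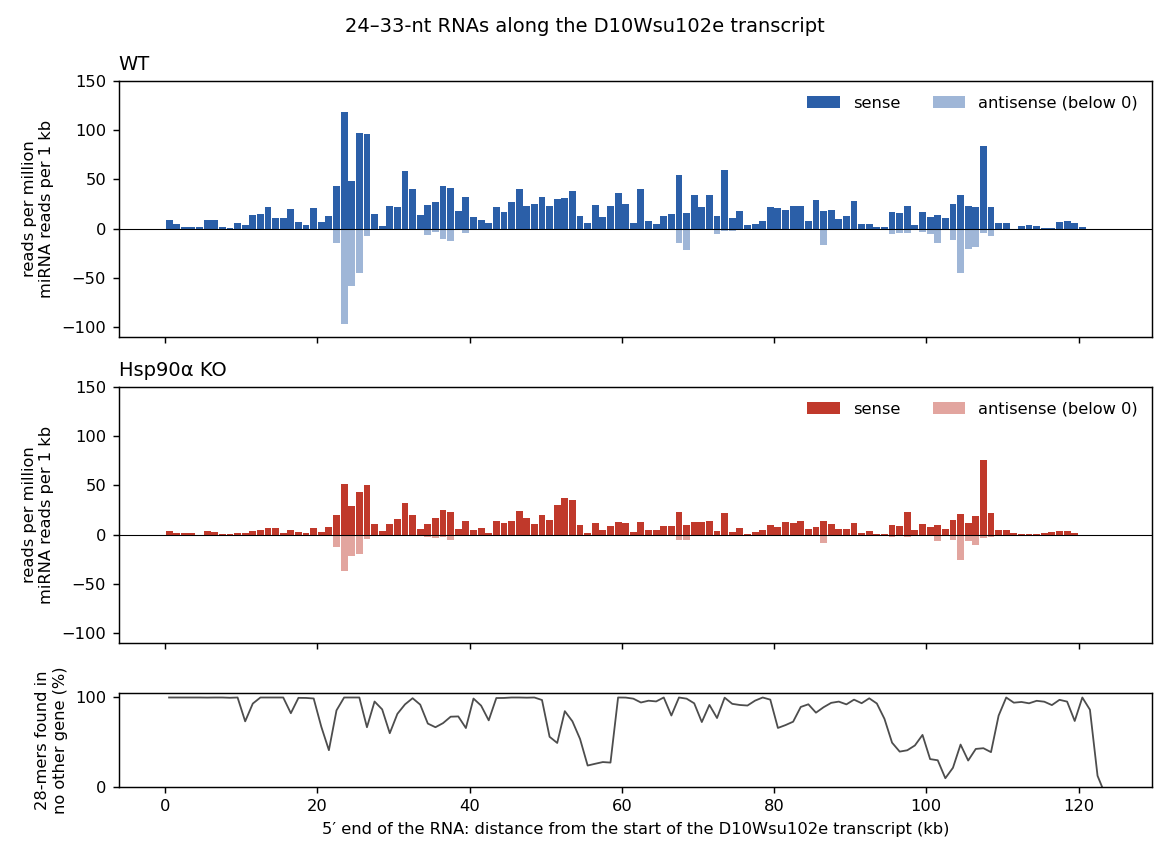
Reads per 1000000 miRNA reads of 24–33-nt RNAs in 1-kb windows along the D10Wsu102e transcript (x axis, kb from its start), sense above 0 and antisense below 0, in the WT (top) and Hsp90α KO (middle) libraries. The lower panel gives the percentage of 28-mers of each window found in no other gene. Sense RNAs cover most of the transcript, antisense RNAs gather around 23 and 104 kb, and sense peaks near 23 and 107 kb are present in both libraries.

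The KO/WT ratio was below 1 along the transcript but not uniform. In the 12 full windows of 10 kb it ranged from 0.308 (0.243 to 0.386) between 10 and 20 kb, with 320 WT and 100 KO reads, to 0.696 (0.614 to 0.788) between 50 and 60 kb, with 616 and 435 reads. All 12 intervals lay below 1. The first 20 kb together had a ratio of 0.324 (0.266 to 0.393) and the rest of the transcript 0.536 (0.515 to 0.558). The ratio between 20 and 30 kb, the window with the most reads, was 0.471 (0.433 to 0.512), and between 100 and 110 kb it was 0.674 (0.610 to 0.746). The intervals of the lowest and highest windows do not overlap. These windows were picked as the extremes of the 12 ratios, and their intervals were not adjusted for that choice. The parts before and after position 61589 had nearly equal ratios of 0.511 and 0.542, with a quotient of 1.06 (0.980 to 1.15).

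The windows also differed in how much of their sequence is specific to the gene. Of all 28-mers of the transcript, 80.7% were found in no other gene and 5.18% occurred in at least 10 genes. The specific share was 94.7% between 10 and 20 kb, 52.1% between 50 and 60 kb and 37.2% between 100 and 110 kb. Over the 12 windows, which share 2 libraries and 1 transcript, the ratio had a Pearson correlation of -0.775 and a Spearman correlation of -0.657 with this share. Its Pearson correlation was 0.581 with position along the transcript, 0.633 with mean WT length and 0.625 with the WT share of 10th-position adenine. With the WT antisense share it was 0.292. The part of the specific share, or of any of these, in the ratio was not tested. With the windows limited to those in which at least 80% of 28-mers were specific, the ratio of the gene was 0.465. RNAs of 24–33 nt that matched D10Wsu102e together with at least 9 other genes, and are left out of the values above, had a ratio of 0.391 with 34255 WT and 13596 KO reads.

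**Figure D2:**
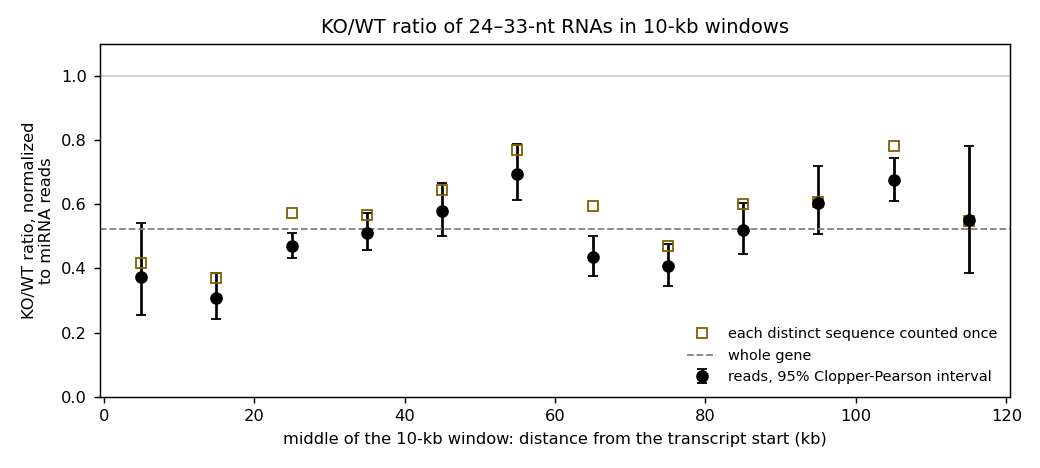
KO/WT ratio of 24–33-nt RNAs, normalized to miRNA reads, in 10-kb windows of the D10Wsu102e transcript (x axis, kb from its start). Filled points are reads with 95% Clopper-Pearson intervals, open squares count each distinct sequence once, the dashed line is the ratio of the whole gene (0.525) and the solid line marks a ratio of 1. All 12 windows lie below 1, with the lowest value at 10 to 20 kb (0.308) and the highest at 50 to 60 kb (0.696).

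At a finer scale the lower level was shared by nearly all windows. Of the 98 windows of 1 kb with at least 20 reads, 97 had a ratio below 1, and 70 had an interval entirely below 1, while 0 had an interval entirely above it. The window from 52 to 53 kb was the exception, with 84 WT and 98 KO reads and a ratio of 1.15 (0.850 to 1.56), an interval that includes 1. The window from 107 to 108 kb, which holds the most abundant 5′ end, had 223 and 202 reads and a ratio of 0.892 (0.734 to 1.08), and 43.2% of its 28-mers were specific to the gene.

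Most of the RNAs had the length of piRNAs. Of the reads of 16–36 nt, 7524 of 7945 in WT and 4007 of 4294 in KO had 24–33 nt. Within 24–33 nt, limits that partly fix these values, the mean length was 27.9 ± 1.74 nt (SD over reads) in WT. In KO it was 27.8 ± 1.73 nt, and reads of 26 to 29 nt made up 75.3% (WT) and 75.4% (KO) of the 24–33-nt reads. Sense RNAs were most often 28 nt long and antisense RNAs 27 nt long, in both libraries. RNAs of 24–27 nt, the size range of MILI-bound piRNAs, had 3055 WT and 1815 KO reads and a ratio of 0.585 (0.552 to 0.620). RNAs of 28–32 nt, the range of MIWI2-bound piRNAs, had 4398 and 2169 reads and a ratio of 0.486 (0.461 to 0.512). The longer class was thus the lower of the pair, and it fell from 59.01% of the 24–32-nt reads in WT to 54.4% in KO (Fisher's exact test, two-sided, p = 2.8e-06, adjusted p = 1.12e-05). The ratio of the longer class was 0.830 times that of the shorter (0.768 to 0.898).

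Fragments of structural RNAs differed with length in the same direction. Their KO/WT ratio was 0.9746 at 24–27 nt and 0.811 at 28–32 nt. With each length class of D10Wsu102e normalized to structural fragments of that class, the quotient of longer over shorter RNAs was 0.998 (0.921 to 1.08), and the difference between the length classes was no longer detectable. The order of the classes held on each strand when normalized to miRNA reads, with ratios of 0.601 (shorter) and 0.506 (longer) for sense RNAs and 0.519 and 0.382 for antisense RNAs. From 24 to 32 nt the ratio at single lengths ranged from 0.444 at 29 nt to 0.622 at 31 nt. RNAs of 16–23 nt from the gene were few, with 324 WT and 249 KO reads, and had a ratio of 0.757 (0.639 to 0.896).

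**Figure D3:**
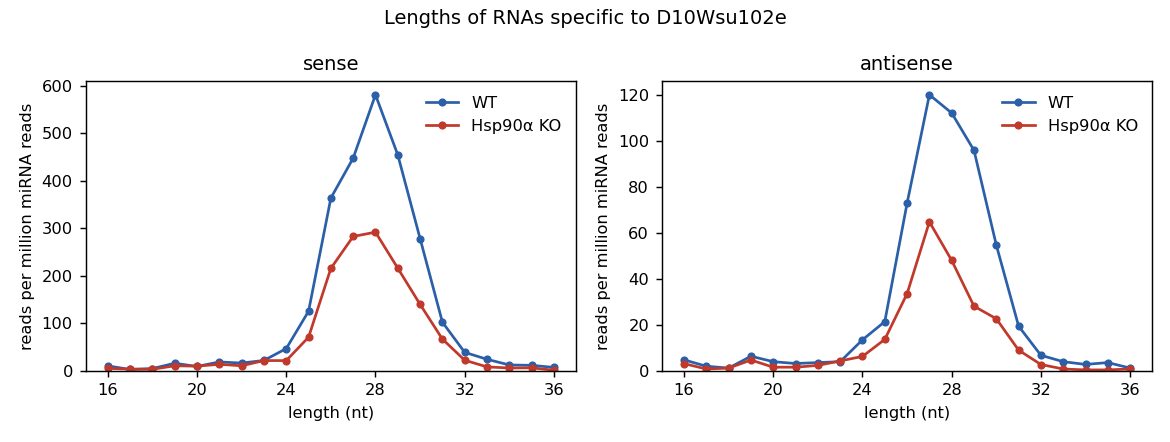
Lengths (x axis, nt) of RNAs specific to D10Wsu102e on the sense (left) and antisense (right) strand, in RPM, for WT (blue) and Hsp90α KO (red). Most reads have 26 to 29 nt, the sense peak is at 28 nt and the antisense peak at 27 nt in both libraries, and the KO line lies below the WT line over these lengths.

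The 24–33-nt RNAs of D10Wsu102e began with uracil in 73.4% of reads in the WT library (72.4 to 74.4, 95% Wilson interval) and in 73.2% in the KO library (71.8 to 74.5). This share is partly fixed by the choice of the gene. Sense RNAs had 74.3% and 74.2% and antisense RNAs 68.9% and 67.2%, where the transcript itself holds 29.2% uracil and its complement 25.99%. Of the sequences shown above, 6 of 8 begin with T and the others with G or A. The first 20 kb stood out in the WT library with 89.95% first-position uracil (86.7 to 92.5) and the window between 100 and 110 kb with 62.1% (59.01 to 65.1). The KO library had 89.4% and 59.3% in these stretches.

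The 10th base was adenine in 44.6% (WT) and 45.9% (KO) of the reads, against 25.99% adenine in the transcript. The difference between the libraries was not detectable at this depth (Fisher's exact test, two-sided, p = 0.169, adjusted p = 0.225). Sense RNAs had 43.2% in WT and 45.0% in KO, and antisense RNAs 51.0% and 51.2%. The 10th base was tied to the first: a 10th-position adenine was present in 35.1% (WT) and 36.8% (KO) of the RNAs that began with uracil, and RNAs that did not begin with uracil had it in 70.7% in each library. The first 20 kb had low shares, 23.8% in WT (20.0 to 28.1) and 26.95% in KO (20.3 to 34.8). These intervals include the 25.99% of the transcript. Other windows of 10 kb with almost only sense RNAs in WT did not all have low shares. In the windows starting at 40, 50 and 110 kb, antisense reads made up 2.37%, 2.597% and 3.23% in WT. Their WT shares of 10th-position adenine were 29.01%, 49.4% and 36.6%. A link between this share and the lack of antisense RNAs was not tested. Between 100 and 110 kb the shares of 10th-position adenine were 58.6% (55.4 to 61.7) in WT and 63.2% (59.5 to 66.8) in KO.

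The 4 base classes had similar ratios. RNAs with first uracil and no 10th adenine, the form of primary piRNAs, had 3583 WT and 1852 KO reads and a ratio of 0.509. Those with both bases had 1938 and 1080 reads and a ratio of 0.549. RNAs with 10th adenine and no first uracil, the form of secondary piRNAs, had 1416 and 760 reads and a ratio of 0.529, and RNAs with neither had 587 and 315 reads and a ratio of 0.529.

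**Figure D4:**
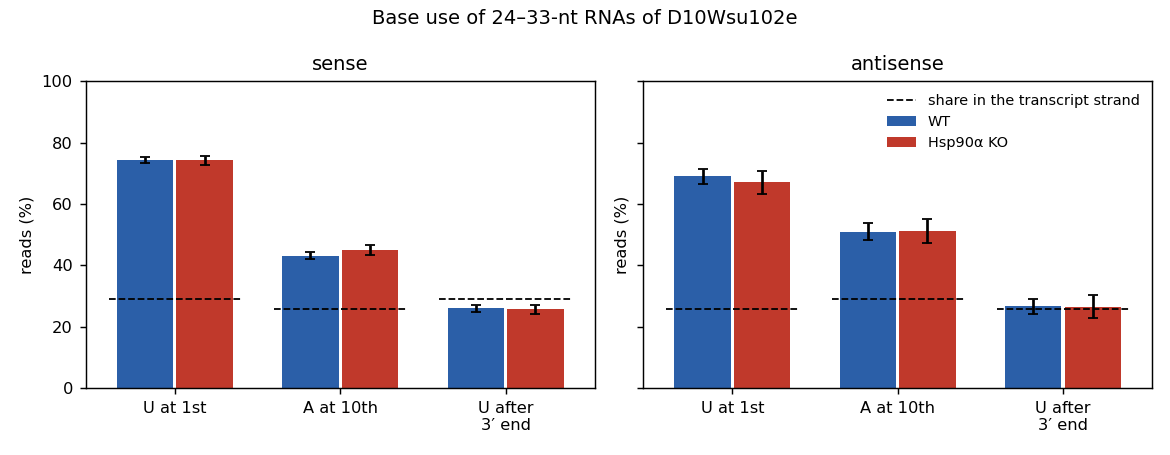
Percentage of 24–33-nt reads of D10Wsu102e with uracil at the first position, adenine at the 10th and uracil just after the 3′ end, for sense (left) and antisense (right) RNAs in WT (blue) and Hsp90α KO (red), with 95% Wilson intervals. Dashed lines give the share of that base in the strand, 25.99% or 29.2%. First uracil and 10th adenine lie above the lines and uracil after the 3′ end lies near or below them, with WT and KO bars at similar heights.

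Sense and antisense RNAs overlapped most often by 10 nt. Among pairs of 5′ ends on opposite strands, with overlaps of 1 to 30 nt and each pair weighted by its reads, the 10-nt overlap took 13.2% (WT) and 11.7% (KO). At the remaining overlaps the mean was 2.99% and 3.04%, and the next most frequent reached 7.16% (9 nt) in WT and 6.77% (30 nt) in KO. With each pair of distinct 5′ ends counted once the share at 10 nt was 7.91% and 8.28%, still the first of the 30 overlaps in both libraries. Within a library there were 89 such pairs of ends in WT and 42 in KO, with 18 in both, and 113 in all.

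Most of the pairs lay where antisense RNAs were dense. The stretch from 20 to 30 kb held 76.5% of the weight of 10-nt pairs in WT and 65.0% in KO, the stretch from 100 to 110 kb held 15.8% and 13.8%, and the first 20 kb held 0. In KO the stretch from 50 to 60 kb, with 11 antisense reads, held another 10.8%, against 0.557% in WT. The pair with the most WT weight is shown, to let the overlap be read from the letters, with the 10 overlapping bases in capitals.
sense 23011: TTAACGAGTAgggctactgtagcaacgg
antisense 23020: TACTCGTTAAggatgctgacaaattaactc
The capitals of the antisense RNA are the reverse complement of those of its sense partner. On GRCm38 the RNAs lie at chr10:83388337-83388364 and chr10:83388317-83388346. Each partner begins with uracil and has adenine at its 10th base, as the complement requires.

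The sense end of this pair had 15 reads in WT and 8 in KO, and its antisense end had 11 and 2. The pair carried 18.4% of the WT weight, and without its sense end the share of 10-nt overlaps was 11.1% in WT and 11.3% in KO, still the first of all overlaps. A partner at 10 nt was present for 290 of 6057 placed sense reads in WT (4.79%) and 99 of 3338 in KO (2.97%), and for 22.2% of 1272 antisense reads in WT and 18.2% of 560 in KO. Most reads of either strand therefore had no such partner among the gene-specific RNAs with a single position. Partners were not sought among the 50668 WT and 22353 KO reads that also match other genes, so their absence from the library was not shown. Because the KO library holds fewer reads of the gene, fewer partners can be found in it, and this was not corrected for. Sense reads with a partner had 10th adenine in 71.4% (WT) and 65.7% (KO), and the other sense reads in 42.2% and 44.6%.

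**Figure D5:**
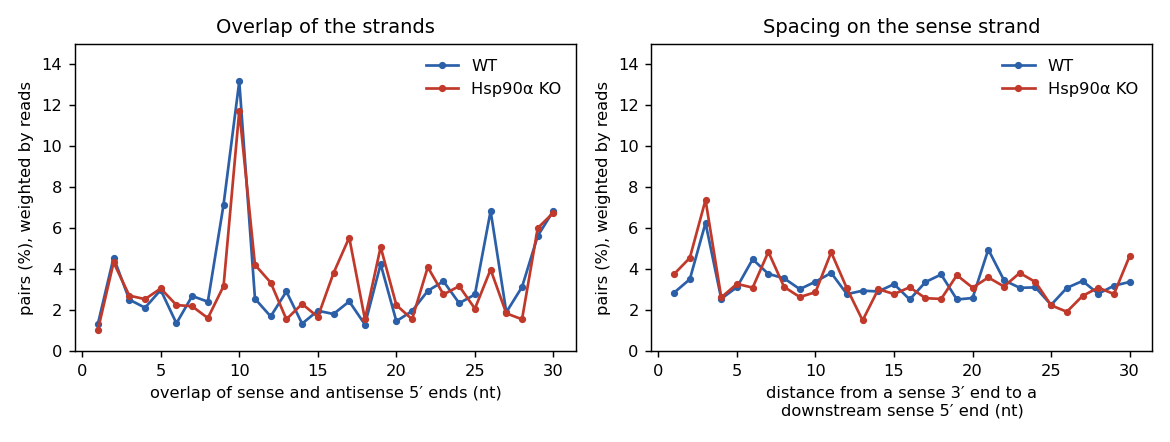
Left, the percentage of sense and antisense 5′-end pairs of D10Wsu102e at each overlap from 1 to 30 nt. Right, the percentage of sense pairs at each distance from the 3′ end of an RNA to a downstream 5′ end. Pairs are weighted by reads, in WT (blue) and Hsp90α KO (red). The overlap of 10 nt stands above all others in both libraries (13.2% and 11.7%), whereas the distance of 1 nt on the right does not (2.86% and 3.77%).

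RNAs cut one after another from a precursor would place the 5′ end of one directly after the 3′ end of the previous one. On the sense strand this distance of 1 nt made up 2.86% of pairs from 1 to 30 nt in WT, below the mean of 3.35% at the other distances and 23rd in rank, and 3.77% in KO, against 3.32%, and 7th in rank. The most frequent distance was 3 nt, with 6.26% in WT and 7.39% in KO. On the antisense strand the 1-nt distance made up 4.61% in WT and, from 38 weighted pairs, 7.01% in KO, against means of 3.29% and 3.21%, and other distances were more frequent in each. With each pair of distinct antisense ends counted once, it made up 5.11% in WT and 6.34% in KO, against means of 3.27% and 3.23%, and shared the first rank with 4 nt, from 29 and 13 pairs. Uracil just after the 3′ end, another sign of such phasing, was found for 26.1% (WT) and 25.7% (KO) of sense RNAs and 26.7% and 26.4% of antisense RNAs, close to or below the share of uracil in the strand. With each distinct sequence counted once, the 1-nt share of sense RNAs was 3.46% in WT and 4.52% in KO. With each pair of distinct sense ends counted once it was 3.20% and 3.79%, against means of 3.34% and 3.32%. It ranked 22nd in WT and 5th in KO. Shares of pairs are given without intervals, because 1 end enters many pairs. The sense strand of WT thus showed no excess at 1 nt, and that of KO lay above the mean of the other distances without being the most frequent by reads.

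Short RNAs of 19 nt and 16 nt have been described as by-products of secondary piRNA production. Reads of 19 nt from D10Wsu102e numbered 56 in WT, between 15 of 18 nt and 33 of 20 nt, and 39 in KO, between 11 and 29, with a KO/WT ratio of 0.686 (0.444 to 1.05). Of the 52 WT reads with a single position, 9 ended directly before the 5′ end of a 24–33-nt RNA of the same strand, and 0 began opposite the 3′ end of a 29-nt RNA. In KO these counts were 1 and 0 of 38. The 16-nt RNAs, with 38 and 21 reads, ended directly before a piRNA 5′ end in 2 of 36 and 2 of 21 placed reads. At these counts the arrangement of by-products could not be assessed.

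The reads came from many 5′ ends, and no single end dominated. The 24–33-nt RNAs had 4369 distinct 5′ ends, 3293 in WT and 2121 in KO, of which 2209 and 1498 had 1 read. The 1045 ends found in both libraries held 59.98% of the WT reads and 69.2% of the KO reads. The 10 ends with the most reads held 6.59% of WT and 5.98% of KO reads.

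The end with the most reads, sense 107260, had 96 WT and 69 KO reads, a ratio of 0.708 (0.512 to 0.975). It is one of the 2 shown ends that do not begin with uracil, and its 10th base is adenine. Within 5 nt on either side, 9 other ends held 49 WT and 57 KO reads. The end at 26549 had 69 and 32 reads, a ratio of 0.457 (0.291 to 0.704), and that at 25212 had 58 and 23 reads, a ratio of 0.391 (0.230 to 0.643). The end at 25624 had 44 and 20 reads (0.448), that at 69226 40 and 16 (0.394), and that at 73235 45 and 11, the lowest of these with 0.241 (0.112 to 0.473). On the antisense strand, 104389 had 29 and 8 reads (0.272, 0.107 to 0.609). The end at antisense 104467, with 25 and 23 reads, had a ratio of 0.906 (0.491 to 1.66), an interval that includes 1. The shown ends were thus lower in KO, by more than the counting error at 7 of 8.

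Of the 179 ends with 10 reads or more, WT and KO added, 162 had a ratio below 1 and 17 above 1. The median was 0.493, and the interval lay entirely below 1 at 47 ends and entirely above 1 at 2. Those 2, named after their values were seen, were sense 53333, with 2 WT and 10 KO reads, and sense 97271, with 1 and 10 reads. At the other extreme, sense 106219 had 10 WT reads and 0 KO reads, and sense 19973 had 23 and 1. Each of these named ends passed the limit of 10 reads through 1 library alone, so its extreme ratio partly follows from that limit. The 179 intervals were not adjusted for their number.

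The lower level at D10Wsu102e was shared with most genes that gave rise to such RNAs. Among the 1052 genes with at least 20 specific 24–33-nt reads, 50.6% were at least 2-fold lower in the KO library, 1.05% were at least 2-fold higher, and 89.5% were lower by any amount. D10Wsu102e, at 0.525, was not past 2-fold, and 52.9% of these genes had a lower ratio than it. Among the 200 richest genes with mostly first-position uracil, 62.5% were at least 2-fold lower, and 132 had a lower ratio. The other 199 of them together had a ratio of 0.437 (0.428 to 0.445), against 0.525 (0.505 to 0.545) for D10Wsu102e. These intervals leave out the spread of ratios between genes, so they do not show whether D10Wsu102e is unusual among them. D10Wsu102e held 19.7% of the WT reads and 22.7% of the KO reads of these 200 genes. In WT, antisense reads made up 39.0% of the reads of the other 199 genes and 17.5% of those of D10Wsu102e, and reads of 28–32 nt made up 53.6% and 58.5% of 24–33-nt reads. These differences between genes were not tested.

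The first place of D10Wsu102e went with its length. Per kb of longest transcript it had 36.9 RPM in both libraries together and ranked 66th of the 1052 genes and 48th of the 200, where the median of the 200 was 15.1. Among all 1052 genes only Lars2 had more reads, with 21.7% first-position uracil. The 3 next richest genes with mostly first uracil were Gm42427, with 1656 WT and 731 KO reads and a ratio of 0.435, Noct, with 1040 and 508 and a ratio of 0.481, and Gm37924, with 747 and 473 and a ratio of 0.624. Their WT antisense shares were 33.1%, 49.9% and 99.1%, against 17.5% at D10Wsu102e, and their 10th-position adenine shares were 59.6%, 53.5% and 72.0%, against 44.6%. Gm42427 was also the gene with the nearest length profile among 39 genes with at least 100 reads, at a distance of 0.0603 on a scale from 0 for identical profiles to 1 for profiles without overlap, where the median was 0.230. Gm43305 and Gm42047 followed, with KO/WT ratios of 0.301 and 0.344. Their 10th-position adenine shares in WT, 40.1% and 40.0%, were below that of D10Wsu102e, and their WT antisense shares, 46.9% and 29.9%, were above it.

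Genes that act with the D10Wsu102e protein had few such RNAs, as had most genes. Of 11 genes for box C/D ribonucleoproteins and their assembly, among them the core proteins Nop58 and Fbl and the helicase Ruvbl1, none reached 20 reads of 24–33 nt, and together they had 31 WT and 25 KO reads. Only 1.90% of all 55450 genes reached 20 reads, so a count of 0 among 11 does not set the list apart. Pih1d1, a subunit of the co-chaperone complex, had the most, with 10 and 9 reads. The neighbouring Aldh1l2 had 6 WT reads and 1 KO read, and the neighbouring Slc41a2 had 0 in each.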

How the data were processed

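Total RNA was extracted from whole testes with Isogen, and libraries were made with the TruSeq Small RNA kit and sequenced on MiSeq with single-end reads. After adaptor clipping by the authors, the deposited values were raw counts of reads for every distinct sequence of a library. The submitters' notes name the mouse build mm9, which was not used here.

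Exact matches of all sequences from 16 nt upward were sought on both strands of 141767 GENCODE M21 transcripts (GRCm38). Transcripts stand in for a genome, so a sequence called specific to D10Wsu102e may also occur outside annotated transcripts. miRNA reads were sense matches within 2202 hairpins. KO/WT ratios have 95% Clopper-Pearson intervals and shares of reads have Wilson intervals. Differences in strand, length class, 10th base and transcript part were tested with Fisher's exact test (two-sided, 4 tests, Benjamini-Hochberg adjustment). The gene, the lists and the comparisons were chosen with earlier results of these data known. Other genes were named as the 3 next richest, the nearest by length profile, and the listed partners and neighbours. On simulated reads for 1052 genes, 96.2% of intervals covered the true ratio. The simulated counts were Poisson draws, which the intervals assume, so this checks the calculation and not the effect of PCR copies. In random artificial transcripts, 400 of 400 planted sequences were placed correctly, which does not check placement in repeats of the D10Wsu102e transcript. Alternatives covered the normalizing total, distinct sequences, a minimum of reads, the most abundant end, shared sequences and lengths. Tables and matching used pandas 2.3.3, numba 0.67.0 and numpy 2.4.6 in Python 3.11.15, intervals and tests used scipy 1.17.1, and plots used matplotlib 3.10.9. One antisense 5′ end and its partner are not reported here.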

Additional observations from a re-analysis of the deposited data

How the results depend on the processing

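Of 83 alternatives to 13 results, 53 left the result as it was, 27 moved a value, 2 ended a call and 1 reversed a direction. Some of the 53 could not have changed, so this count overstates how stable the results are. The quotients by length class and transcript part do not depend on the normalizing total. Limiting the count to the longest transcript changes nothing, because the gene has 1 transcript. No ratio of the gene or of either strand rose above 1 under those run. The overall KO/WT ratio, 0.525, was 0.608 normalized to all reads, 0.576 to structural RNA, 0.603 with distinct sequences and 0.446 with sequences that match other genes. Within the RefSeq gene it was 0.465, from only 36 WT and 17 KO reads (0.245 to 0.850). In windows of mostly specific sequence it was also 0.465 (0.441 to 0.489). Those last choices, the first 20 kb and the structural fragments by length were made after seeing the data. The sense ratio was 0.628, 0.5955, 0.616 and 0.4195 under the first 4 of these, and the antisense ratio 0.511 with all reads and 0.543 with distinct sequences. The strand difference was -1.75 points with distinct sequences and 3.45 with sequences matching other genes, where the sign turned. The length quotient was 0.998 against structural fragments. First uracil in WT was 71.8% with distinct sequences, 76.5% with sequences of at least 2 reads and 72.0% with shared ones, and in KO 75.9% and 71.8% for the latter 2. The share of 1-nt distances on the sense strand was, in WT, 3.46% (distinct sequences), 2.25% (at least 2 reads) and 3.20% (distinct ends), and in KO 4.52% and 3.18% for the first 2. The 10-nt overlap was, in WT, 10.1%, 14.6% and 7.91% under the same 3 settings, and in KO 10.1% with at least 2 reads and 8.28% with distinct ends. The causes of these shifts were not tested. No paired analysis was possible because each genotype has 1 library, and for the same reason no replicate could be left out. Depth limited the coding sequence, the 19-nt RNAs and single ends.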
